A study of Mus musculus with 9 samples.

Results

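The collagen chains of this co-culture series were the 42 genes whose symbol in the array annotation read Col, a number, the letter a and a number. They were taken from 18193 genes measured, with 1 probe set per gene, the one with the highest mean over the 9 arrays. The rule uses symbols and mean brightness, and it was written with earlier results of these data known. The arrays held 82 probe sets for these chains, so that 15 chains had 1 probe set and 27 had several.

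Collagens are trimers of chains wound into a triple helix. Fibrillar collagens build the ropes of connective tissue, type IV collagen the sheet of basement membranes, and type VI collagen beaded filaments around cells, while short-chain, fibril-associated, transmembrane and multiplexin collagens form smaller classes. In bone marrow the chains are known mainly as products of stromal, perivascular and bone-forming cells, whereas blood cells chiefly carry collagen receptors and collagen-degrading enzymes.

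The study placed LSK cells, the Lineage- Sca-1+ c-Kit+ fraction of wild-type C57/Bl6 bone marrow that is enriched for stem and progenitor cells, on OP9 feeders for 3 days. OP9 is a mouse marrow stromal line. The 3 groups were cells on OP9-DL1 with Compound E at 1 µM (OP9-DL1+CompoundE), cells on OP9-DL1 without it (OP9-DL1), and cells on OP9-GFP (OP9-GFP), with 3 arrays each. DL1 is the Notch ligand Delta-like 1, and Compound E inhibits gamma-secretase, the protease that releases the active part of Notch. The non-adherent cells were harvested and total RNA was amplified from 25 ng per condition.

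All groups shared the OP9 background, the wild-type donor strain and the culture time. OP9-DL1 and OP9-GFP are different feeder lines, so the ligand and the line that carries it cannot be told apart between them; Compound E was set against the same DL1 feeder. A harvest of floating cells can still contain feeder cells, and no array of feeder cells alone or of uncultured LSK cells was used here. The labels do not say whether replicates came from separate cultures or animals, so each p-value reflects how far these arrays spread, which may be technical variation only.

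Values are log2 expression levels as deposited, and differences are log2 changes, where 1 is a 2-fold change. Array medians lay between 4.78 and 4.94. The highest value of any of 27 bacterial control probe sets on any array was 3.64, which was taken as background. In at least 1 group mean 26 chains exceeded it, and 16 did not. In 13 chains, and in 21.9% of all genes, at least 2 arrays of a group held equal values. A chain was called higher or lower where limma's adjusted p, after Benjamini-Hochberg adjustment over all 18193 genes, was under 0.05. Levels of different chains come from different probe sets and were not set against each other.

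Markers of several cell types moved with the groups. Markers of the stromal feeder were detected in all 3 groups: the summed linear level (log2 values turned back before adding) of 23 of them was 14839 to 15246 in OP9-DL1+CompoundE, 27646 to 27848 in OP9-DL1 and 15111 to 15178 in OP9-GFP, and 4 of the 23, Lepr, Cnn1, Lum and Dcn, stayed at background. The 6 pan-leukocyte markers summed to 27747 to 30261, 24937 to 26129 and 28306 to 29062 in the same groups. Megakaryocyte markers summed to 6260 to 6609 in OP9-DL1+CompoundE, 22469 to 22792 in OP9-DL1 and 8731 to 8834 in OP9-GFP. The 6 endothelial markers, of which Emcn stayed at background, summed to 402 to 503, 1790 to 2018 and 613 to 670. Mast cell markers summed to 1836 to 1939, 5632 to 5761 and 3694 to 3822, and 6 of 7 were called higher in OP9-DL1 than in OP9-GFP (median 1.14) and 7 of 7 lower in OP9-DL1+CompoundE than in OP9-DL1 (median -2.76). Of all genes, 15.9% were called higher in the first of these comparisons and 21.6% lower in the second. Macrophage markers ran the other way, with 20185 to 20647, 5399 to 5775 and 16846 to 17202. Of the markers that define the plated cells, Kit was measured, with levels of 8.05 to 8.27 in OP9-DL1+CompoundE, 10.05 to 10.36 in OP9-DL1 and 8.81 to 9.11 in OP9-GFP. It was higher in OP9-DL1 than in OP9-GFP by 1.28, while the progenitor markers Cd34 and Flt3 changed by -0.35 and -1.51, all called. The part of these shifts in the collagen results below was not tested.

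In OP9-DL1 against OP9-GFP, collagen chains were mostly higher where they differed at all. Among the chains called higher were Col8a1, a network-forming short-chain collagen of vessel walls and of the corneal Descemet membrane, and Col18a1, a basement membrane collagen whose end fragment is endostatin. Col3a1, the fibrillar chain of vessels and reticular fibres, and Col4a1 and Col4a2, the basement membrane pair, were the others higher by at least 2-fold. Of the 42 chains, 13 were called higher and 1 lower, against 15.9% of all genes called higher and 16.7% called lower. Taken in either direction, 33.3% of the chains were called, close to the 32.6% of all genes. Arrays of the groups did not overlap for 16 chains, 14 of them above, where 43.8% of all genes did not overlap. At least 2-fold, 5 chains were higher and none lower, against 4.11% and 2.76% of all genes. The median change over all 42 chains was 0.02, beside -0.02 over all genes. Over the 26 chains above background it was 0.28, but these were picked by their highest group mean, and all genes were not. In such bulk samples, fewer cells of a type and less RNA per cell cannot be told apart.

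In OP9-DL1+CompoundE against OP9-DL1, the called chains were mainly lower, with Col18a1, Col8a1, Col4a1 and Col12a1 lower by at least 2-fold. Here 16 chains were called lower and 3 higher, all of the 3 at background, against 21.6% of all genes called lower and 25.1% called higher. In either direction 45.2% of the chains were called, close to the 46.7% of all genes. For 24 chains the arrays did not overlap, 5 with OP9-DL1+CompoundE above and 19 with it below, where 52.6% of all genes did not overlap. At least 2-fold, 4 chains were lower and none higher, against 4.95% and 4.47% of all genes. The median change was -0.05 over the chains, -0.44 over the 26 above background and 0.08 over all genes. Centring each array on its median moved the median of all genes by 0.13 and the split of the chains to 10 higher and 14 lower, and of all called genes 73.7% were then higher, against 53.8% as deposited.

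OP9-DL1+CompoundE against OP9-GFP left a mixed picture. Of the 42 chains, 7 were called higher and 5 lower, against 12.1% and 10.6% of all genes, and 28.6% were called in either direction, against 22.7%. Arrays did not overlap for 14 chains, 8 above and 6 below, where 34.8% of all genes did not overlap. Only Col8a1 and Col3a1 were higher by at least 2-fold, against 0.605% of all genes, and none was lower by that much, against 0.753%. The median was 0.05 for the chains, 0.05 for the 26 above background and 0.05 for all genes. With centred arrays 10 chains were higher and 5 lower, and 78.2% of all called genes were higher, against 53.4% as deposited. The 3 comparisons share arrays, so their values are given side by side and not correlated.

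**Figure D1:**
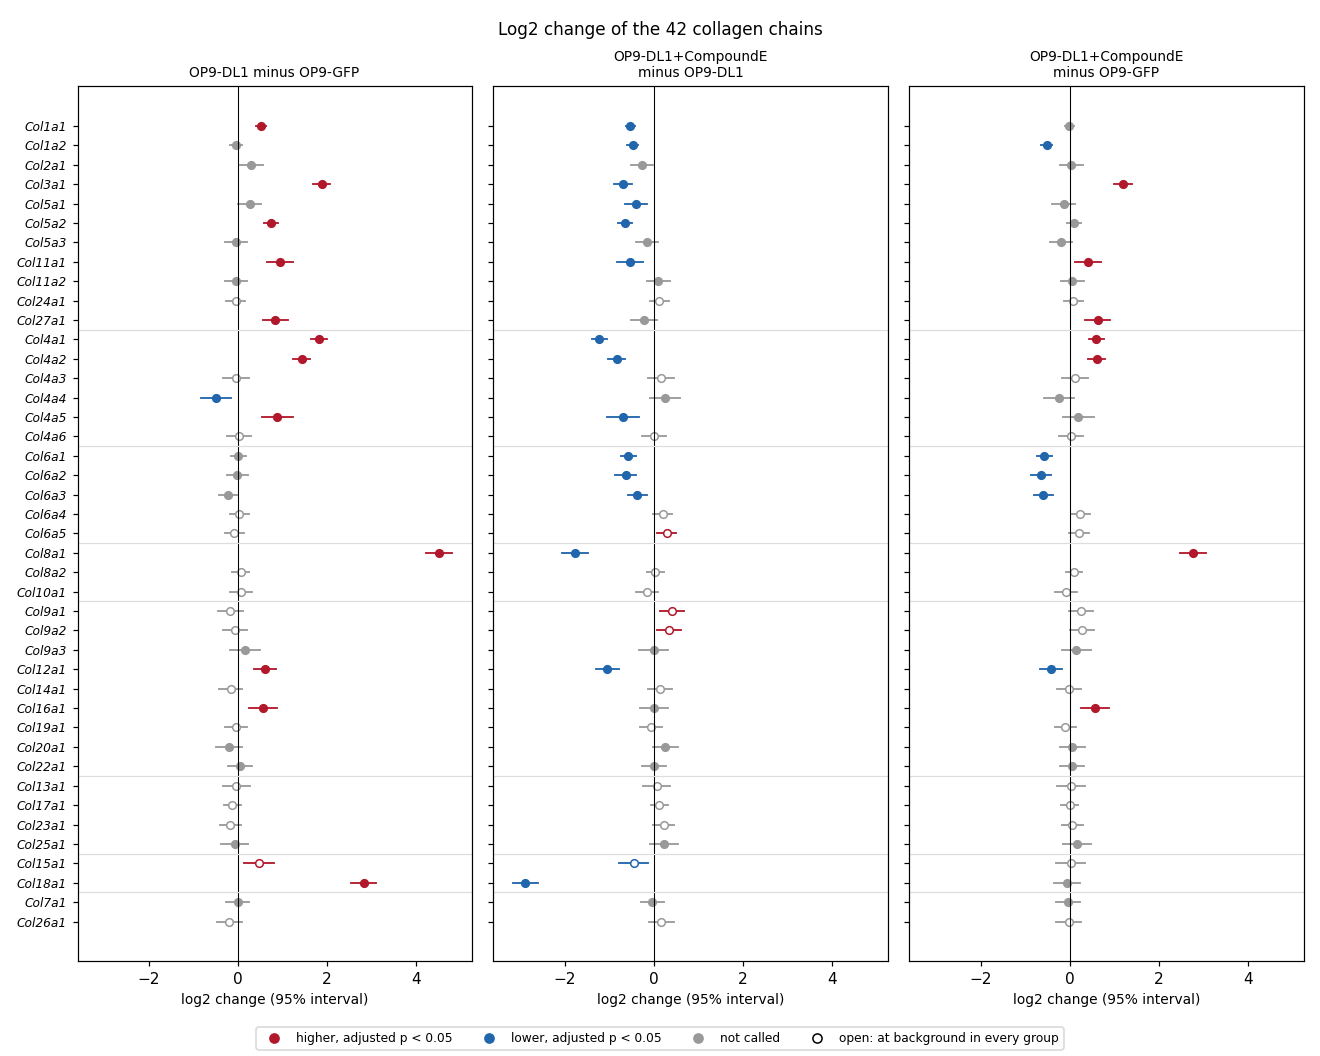
Log2 change of each of the 42 collagen chains in the 3 comparisons, grouped by collagen class. Points are limma estimates, bars their 95% intervals, colours the calls at an adjusted p under 0.05, and open points chains at background in every group. OP9-DL1 against OP9-GFP has 13 chains called higher and 1 lower, and OP9-DL1+CompoundE against OP9-DL1 has 16 called lower and 3, all at background, called higher.

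Col8a1 had the greatest change of the named chains in OP9-DL1 against OP9-GFP by the brightest probe sets, and Col18a1 with probe sets averaged. Its levels were 6.89, 6.96 and 6.96 in OP9-DL1+CompoundE, 8.73, 8.87 and 8.50 in OP9-DL1, and 4.48, 3.97 and 4.06 in OP9-GFP. The groups did not overlap: OP9-DL1 was highest, OP9-GFP lay just above background, and OP9-DL1+CompoundE stood between. OP9-DL1 exceeded OP9-GFP by 4.53 ± 0.14 (SE, n = 3 each), which is 23.1-fold, with an adjusted p of 4.19e-13 by limma. OP9-DL1+CompoundE was lower than OP9-DL1 by 3.39-fold (log2 change -1.76, adjusted p = 1.82e-08) and higher than OP9-GFP by 6.79-fold (log2 change 2.76, adjusted p = 1.78e-09). The sizes depend on the probe set: averaged over its probe sets, Col8a1 changed by 2.09, -0.87 and 1.22 in these comparisons, all called, beside 2.55, -2.71 and -0.16 for Col18a1. Another pair of Col8a1 probe sets, dimmer, gave changes of 0.86 and 0.87 in OP9-DL1 against OP9-GFP, both called higher when all probe sets were tested. They gave -0.57, called, and -0.28, not called, in OP9-DL1+CompoundE against OP9-DL1, and against OP9-GFP 0.30, not called, and 0.59, called. The first averaged 3.13 in OP9-DL1+CompoundE, below background, and the second 4.44, 4.72 and 3.85 in OP9-DL1+CompoundE, OP9-DL1 and OP9-GFP. Both enter the averaged Col8a1 values.

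Col18a1 had the greatest fall of the named chains in OP9-DL1+CompoundE against OP9-DL1. Its levels were 5.88, 5.84 and 5.31 in OP9-DL1+CompoundE, 8.56, 8.53 and 8.59 in OP9-DL1, and 5.76, 5.74 and 5.70 in OP9-GFP. OP9-DL1 stood apart from both other groups, which overlapped each other. OP9-DL1 was 7.10-fold above OP9-GFP (log2 change 2.83 ± 0.13 SE, adjusted p = 5.99e-11 by limma), and OP9-DL1+CompoundE was 7.39-fold below OP9-DL1 (log2 change -2.89, adjusted p = 2.82e-11). Between OP9-DL1+CompoundE and OP9-GFP the difference was -0.06, with a 95% interval of -0.34 to 0.23 and an adjusted p of 0.793. Its other probe set gave changes of 2.27 and -2.53, both called, and of -0.26, not called. Col15a1, the other multiplexin chain, stayed at background in every group with means of 3.12, 3.57 and 3.09, and its calls of 0.48 in OP9-DL1 against OP9-GFP and -0.45 in OP9-DL1+CompoundE against OP9-DL1 rest on values at that level.

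Promoter windows were read for the chains that the results turn on, to show the sequence next to their starts. RBPJ is the DNA-binding factor of the Notch pathway. Each runs over the 250 bases before a RefSeq transcription start on GRCm38.p6, 5′ to 3′ on the gene's strand. Capitals mark, on either strand, the RBPJ core TGGGAA, the GC box GGGCGG, the CCAAT box CCAAT, the TATA box TATAAA, the AP-1 site TGANTCA and the TEAD site GGAATG.
Col8a1, chr16:57754738-57754987, minus strand: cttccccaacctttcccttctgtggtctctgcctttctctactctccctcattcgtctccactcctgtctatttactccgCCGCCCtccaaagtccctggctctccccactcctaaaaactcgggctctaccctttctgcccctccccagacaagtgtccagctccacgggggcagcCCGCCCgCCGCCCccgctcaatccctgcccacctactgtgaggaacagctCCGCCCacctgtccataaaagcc
Col18a1 upstream start, chr10:77166531-77166780, minus strand: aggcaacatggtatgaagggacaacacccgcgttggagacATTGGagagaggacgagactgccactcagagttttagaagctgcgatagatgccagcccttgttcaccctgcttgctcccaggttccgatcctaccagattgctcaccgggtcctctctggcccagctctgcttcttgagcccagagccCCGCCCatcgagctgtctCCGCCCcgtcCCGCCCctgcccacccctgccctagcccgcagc
Col18a1 downstream start, chr10:77113706-77113955, minus strand: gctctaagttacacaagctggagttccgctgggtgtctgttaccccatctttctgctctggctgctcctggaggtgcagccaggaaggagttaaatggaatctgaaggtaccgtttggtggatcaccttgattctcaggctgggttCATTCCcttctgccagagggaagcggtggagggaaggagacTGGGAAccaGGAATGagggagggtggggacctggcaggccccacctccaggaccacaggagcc
Col3a1, chr1:45311288-45311537, plus strand: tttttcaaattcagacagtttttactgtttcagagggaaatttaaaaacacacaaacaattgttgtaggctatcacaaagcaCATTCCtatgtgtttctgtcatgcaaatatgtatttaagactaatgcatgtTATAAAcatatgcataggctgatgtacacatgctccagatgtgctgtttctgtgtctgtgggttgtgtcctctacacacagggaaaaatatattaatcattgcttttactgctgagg
Col6a1, chr10:76726045-76726294, minus strand: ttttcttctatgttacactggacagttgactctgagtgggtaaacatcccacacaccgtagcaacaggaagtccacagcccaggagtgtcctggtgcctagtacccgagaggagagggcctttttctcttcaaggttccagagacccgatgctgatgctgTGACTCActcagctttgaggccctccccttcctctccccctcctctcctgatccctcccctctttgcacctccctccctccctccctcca

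The Col8a1 window held 4 GC boxes, at 170, 73, 66 and 23 bases before the start, and none of the other 5 motifs. The upstream Col18a1 window held GC boxes at 61, 43 and 33 bases and a CCAAT box at 210, and the downstream one an RBPJ core at 63 and TEAD sites at 104 and 54. Col3a1 had a TATA box at 117 and a TEAD site at 168, and Col6a1, a type VI chain, an AP-1 site at 90. No matches of different motifs overlapped in these windows. Windows were found for 33 of the 42 chains, 36 windows in all, and the arrays do not tell which Col18a1 start was used. The RBPJ core occurred in 10 of the 36, against 21.6% of 32851 windows of the same length from all genes; the GC box in 21, against 32.7%; the CCAAT box in 13, against 33.8%; the TATA box in 5, against 12.4%; the AP-1 site in 1, against 6.75%; and the TEAD site in 4, against 12.6%. A match describes letters only and is not a measured binding site.

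**Figure D2:**
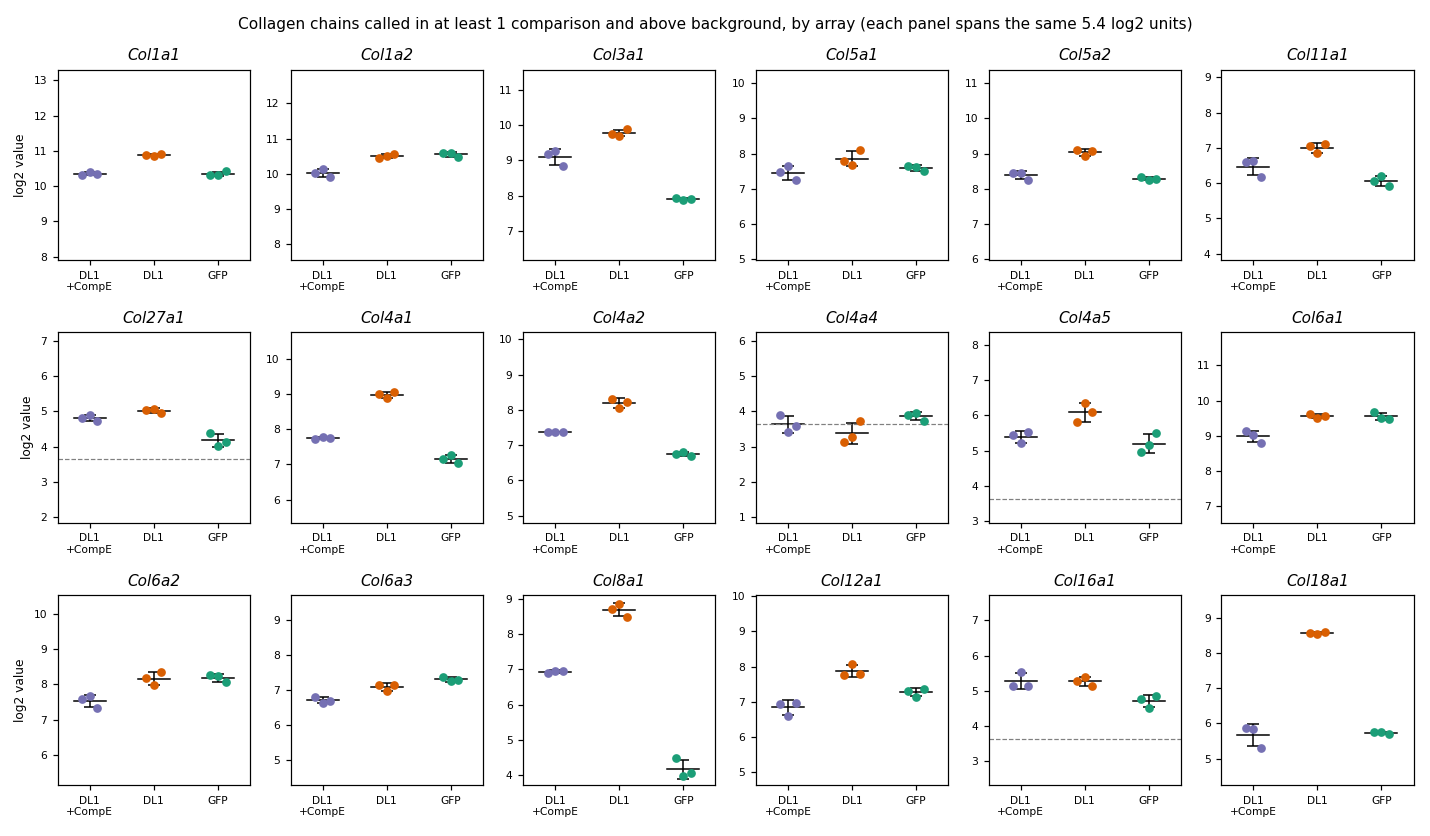
Log2 level of the 18 named chains on each of the 9 arrays. Points are arrays, long bars group means and whiskers SD; the dashed line is background at 3.64 where it falls within a panel, and all panels span the same range. Col8a1 has OP9-DL1 at 8.50 to 8.87 and OP9-GFP at 3.97 to 4.48, while the Col6a1 arrays of OP9-DL1 and OP9-GFP overlap.

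Shares of all genes called were 15.9% higher and 16.7% lower in OP9-DL1 against OP9-GFP, 25.1% higher and 21.6% lower in OP9-DL1+CompoundE against OP9-DL1, and 12.1% higher and 10.6% lower in OP9-DL1+CompoundE against OP9-GFP, and the counts of the smaller classes are read against these. Among the 11 fibrillar chains, 5 were called higher and none lower in OP9-DL1 against OP9-GFP, 6 were lower and none higher in OP9-DL1+CompoundE against OP9-DL1, and 3 were higher and 1 lower in OP9-DL1+CompoundE against OP9-GFP. Col3a1 had levels of 9.18, 9.25 and 8.84 in OP9-DL1+CompoundE, 9.76, 9.70 and 9.88 in OP9-DL1, and 7.92, 7.87 and 7.90 in OP9-GFP. The groups did not overlap, and both DL1 groups lay above OP9-GFP. Col3a1 was 3.70-fold higher in OP9-DL1 than in OP9-GFP (log2 change 1.89 ± 0.09 SE, adjusted p = 7.6e-11 by limma), 1.61-fold lower in OP9-DL1+CompoundE than in OP9-DL1 (adjusted p = 9.32e-06), and 2.29-fold higher than in OP9-GFP (adjusted p = 1.65e-07). Its other probe set gave 2.23, -1.18 and 1.05, each called.

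Col1a1 and Col1a2 encode the chains of type I collagen, the main fibril of bone, skin and tendon, and both were called lower in OP9-DL1+CompoundE than in OP9-DL1. Col1a1 had levels of 10.31, 10.40 and 10.34 in OP9-DL1+CompoundE, 10.89, 10.85 and 10.90 in OP9-DL1, and 10.32, 10.33 and 10.42 in OP9-GFP. OP9-DL1 stood apart, and the other groups overlapped. The changes were 0.52 in OP9-DL1 against OP9-GFP (adjusted p = 2.79e-07 by limma), -0.53 in OP9-DL1+CompoundE against OP9-DL1 (adjusted p = 1.64e-07) and -0.01 against OP9-GFP, with a 95% interval of -0.11 to 0.10. Col1a2 had levels of 10.04, 10.13 and 9.92 in OP9-DL1+CompoundE, 10.45, 10.49 and 10.57 in OP9-DL1, and 10.59, 10.58 and 10.47 in OP9-GFP. Here OP9-DL1+CompoundE was below both other groups, which overlapped. The changes were -0.48 against OP9-DL1 (adjusted p = 5.96e-06) and -0.52 against OP9-GFP (adjusted p = 1.39e-05), while OP9-DL1 against OP9-GFP gave -0.04, with a 95% interval of -0.17 to 0.09. In OP9-DL1 against OP9-GFP the calls depend on the probe set: the second bright Col1a2 probe set was called higher by 0.26, as was the averaged Col1a2 value (0.22, adjusted p = 0.0240, and -0.31, called, in OP9-DL1+CompoundE against OP9-GFP), and the other Col1a1 probe set, at 0.19, was not called. The difference between the chains itself was not tested.

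Type V and type XI chains join type I and type II fibrils and set their diameter. Col5a2 had levels of 8.47, 8.44 and 8.26 in OP9-DL1+CompoundE, 9.11, 8.94 and 9.08 in OP9-DL1, and 8.33, 8.26 and 8.28 in OP9-GFP. Only OP9-DL1 stood apart, with changes of 0.75 against OP9-GFP (adjusted p = 6.71e-07 by limma) and, for OP9-DL1+CompoundE against OP9-DL1, -0.65 (adjusted p = 2.38e-06). Col5a1 had levels of 7.47, 7.66 and 7.26 in OP9-DL1+CompoundE, 7.79, 7.69 and 8.11 in OP9-DL1, and 7.66, 7.63 and 7.51 in OP9-GFP. Its DL1 groups did not overlap, and the change of -0.40 between them was called (adjusted p = 0.0114), but not without OP9-DL1 replicate 3 (-0.28, adjusted p = 0.0753) or OP9-DL1+CompoundE replicate 3 (-0.30, adjusted p = 0.0567), nor with centred arrays (-0.27, adjusted p = 0.0601). For OP9-DL1 against OP9-GFP the Col5a1 change was 0.26 (adjusted p = 0.112), while both its other probe sets, at 0.63 and 0.60, were called.

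Col11a1 had levels of 6.61, 6.63 and 6.19 in OP9-DL1+CompoundE, 7.06, 6.85 and 7.11 in OP9-DL1, and 6.06, 6.20 and 5.93 in OP9-GFP. OP9-DL1 lay above both other groups, which overlapped at a single pair of arrays. Its changes were 0.95 in OP9-DL1 against OP9-GFP (adjusted p = 3.02e-05 by limma) and -0.53 in OP9-DL1+CompoundE against OP9-DL1 (adjusted p = 0.00381). The change of 0.41 in OP9-DL1+CompoundE against OP9-GFP (adjusted p = 0.0373) was not called without OP9-GFP replicate 1 or 3 (adjusted p = 0.0923 and 0.131), OP9-DL1 replicate 1 (0.0547), or OP9-DL1+CompoundE replicate 1 or 2 (0.126 and 0.128). It also ended on the log2(value + 32) scale (0.29, adjusted p = 0.0607), with no intensity trend (0.0518) and with only the 6 arrays compared (0.0705). Col27a1, a fibrillar chain known from cartilage, had 4.80, 4.89 and 4.72 in OP9-DL1+CompoundE, 5.04, 5.07 and 4.94 in OP9-DL1, and 4.39, 4.02 and 4.11 in OP9-GFP. Both DL1 groups were above OP9-GFP, by 0.84 in OP9-DL1 (adjusted p = 9.36e-05) and 0.63 in OP9-DL1+CompoundE (adjusted p = 0.00287), and differed from each other by -0.22, with a 95% interval of -0.50 to 0.07. Col2a1, the main chain of cartilage, averaged 8.49 ± 0.17, 8.75 ± 0.14 and 8.45 ± 0.27 in OP9-DL1+CompoundE, OP9-DL1 and OP9-GFP (SD, n = 3 each) and was not called in any comparison.

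Type IV chains form the mesh of basement membranes. Of the 6 measured, 3 were higher and 1 lower in OP9-DL1 than in OP9-GFP, 3 were lower and none higher in OP9-DL1+CompoundE than in OP9-DL1, and 2 were higher and none lower in OP9-DL1+CompoundE than in OP9-GFP. Col4a1 had levels of 7.73, 7.78 and 7.76 in OP9-DL1+CompoundE, 8.99, 8.88 and 9.06 in OP9-DL1, and 7.16, 7.25 and 7.04 in OP9-GFP. Col4a2, its partner in the ubiquitous type IV trimer, had 7.37, 7.36 and 7.36 in OP9-DL1+CompoundE, 8.30, 8.04 and 8.23 in OP9-DL1, and 6.75, 6.81 and 6.70 in OP9-GFP. Both chains had the same order with no overlap: OP9-DL1 highest, OP9-GFP lowest. Col4a1 was 3.53-fold higher in OP9-DL1 than in OP9-GFP (log2 change 1.82 ± 0.08 SE, adjusted p = 3.49e-11 by limma) and 2.33-fold lower in OP9-DL1+CompoundE than in OP9-DL1 (log2 change -1.22, adjusted p = 3.11e-09). Col4a2 was 2.71-fold higher (log2 change 1.44 ± 0.09 SE, adjusted p = 2.07e-09) and 1.78-fold lower (log2 change -0.83, adjusted p = 1.1e-06). OP9-DL1+CompoundE exceeded OP9-GFP by 0.60 in Col4a1 (adjusted p = 6.89e-05) and 0.61 in Col4a2 (adjusted p = 0.000156), but the other Col4a1 probe set gave 0.05, not called, there, and the averaged value was 0.32, called. That probe set gave 1.45 and -1.41 in the other comparisons, both called.

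Col4a5, a chain of the kidney type IV network encoded on the X chromosome, had 5.44, 5.21 and 5.54 in OP9-DL1+CompoundE, 5.81, 6.37 and 6.09 in OP9-DL1, and 4.96, 5.15 and 5.49 in OP9-GFP. OP9-DL1 lay above both other groups, by 0.89 against OP9-GFP (adjusted p = 0.000482 by limma), and OP9-DL1+CompoundE was lower than OP9-DL1 by a log2 change of -0.69 (adjusted p = 0.00276). Col4a4, from the same kidney network, had 3.89, 3.41 and 3.59, then 3.13, 3.27 and 3.72, and 3.90, 3.96 and 3.74 in those groups, near background in each. OP9-DL1 lay below OP9-GFP without overlap, with a change of -0.49 (adjusted p = 0.0238). That call ended without OP9-DL1 replicate 1 or 2 (adjusted p = 0.138 and 0.0959) and without OP9-GFP replicate 1 or 2 (adjusted p = 0.0704 and 0.0838), and with averaged probe sets (-0.27, adjusted p = 0.0600). Its dimmer pair of probe sets, at background in every group, gave -0.26 and -0.06 there, neither called. The second of the pair was called lower in OP9-DL1+CompoundE, by log2 changes of -0.47 against OP9-DL1 and -0.52 against OP9-GFP. In these comparisons the probe set used gave 0.26 and -0.24, and the first of the pair -0.10 and -0.36, none called. Col4a3 and Col4a6 were at background in every group.

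Type VI chains had another pattern: none of the 5 was called in OP9-DL1 against OP9-GFP, and the 3 chains above background were lower in OP9-DL1+CompoundE than in either other group. Col6a1 had levels of 9.13, 9.01 and 8.81 in OP9-DL1+CompoundE, 9.62, 9.50 and 9.57 in OP9-DL1, and 9.67, 9.50 and 9.49 in OP9-GFP. Col6a2 had 7.57, 7.68 and 7.34 in OP9-DL1+CompoundE, 8.17, 7.97 and 8.34 in OP9-DL1, and 8.25, 8.22 and 8.05 in OP9-GFP. Col6a3 had 6.80, 6.64 and 6.69 in OP9-DL1+CompoundE, 7.15, 6.96 and 7.14 in OP9-DL1, and 7.37, 7.26 and 7.28 in OP9-GFP. In all 3 chains the OP9-DL1+CompoundE arrays lay below every array of the other groups. Against OP9-DL1 the changes were -0.58 for Col6a1 (adjusted p = 1.42e-05 by limma), -0.63 for Col6a2 (0.000134) and -0.37 for Col6a3 (0.00518), and against OP9-GFP -0.57, -0.65 and -0.59 (adjusted p = 8.17e-05, 0.000418 and 0.000383). Between OP9-DL1 and OP9-GFP the differences were 0.01 for Col6a1 (95% interval -0.16 to 0.18), -0.01 for Col6a2 (-0.24 to 0.22) and -0.22 for Col6a3 (-0.43 to -0.01, adjusted p = 0.107). The Col6a3 difference was called with centred arrays (-0.26, adjusted p = 0.0481) and where probe sets of each gene were averaged (-0.22, adjusted p = 0.0410), although Col6a3 has a single probe set. Col6a4 stayed at background, and so did Col6a5, whose call of 0.29 in OP9-DL1+CompoundE against OP9-DL1 rests on a mean of 2.69 in OP9-DL1+CompoundE.

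Fibril-associated chains sit on the surface of fibrils. Of the 9 measured, 2 were higher in OP9-DL1 than in OP9-GFP, 2 higher and 1 lower in OP9-DL1+CompoundE than in OP9-DL1, and 1 higher and 1 lower in OP9-DL1+CompoundE than in OP9-GFP. Col12a1, a chain of tendon and other dense tissue, had 6.95, 6.61 and 6.97 in OP9-DL1+CompoundE, 7.78, 8.07 and 7.80 in OP9-DL1, and 7.30, 7.14 and 7.37 in OP9-GFP. The groups did not overlap, with OP9-DL1 highest and OP9-DL1+CompoundE lowest. Its changes were 0.61 in OP9-DL1 against OP9-GFP (adjusted p = 0.000564 by limma), -1.04 in OP9-DL1+CompoundE against OP9-DL1 (adjusted p = 1.59e-06) and -0.43 against OP9-GFP (adjusted p = 0.0155). With its probe sets averaged, the first and last calls ended (0.15, adjusted p = 0.222, and -0.16, adjusted p = 0.213) and the middle change was -0.31, called. The last call also ended without OP9-GFP replicate 1 or 3 (adjusted p = 0.0569 and 0.0626) and without OP9-DL1+CompoundE replicate 2 (0.0675). The other 3 Col12a1 probe sets, with means over the arrays of 4.08, 2.71 and 2.82, were not called in any comparison.

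Col16a1, another fibril-associated chain, had 5.14, 5.53 and 5.14 in OP9-DL1+CompoundE, 5.27, 5.39 and 5.14 in OP9-DL1, and 4.77, 4.52 and 4.84 in OP9-GFP. Both DL1 groups overlapped and lay above OP9-GFP, by 0.56 each, with adjusted p = 0.00755 for OP9-DL1 and 0.0118 for OP9-DL1+CompoundE by limma. The second call ended without OP9-GFP replicate 2 (adjusted p = 0.0640) or OP9-DL1+CompoundE replicate 2 (0.0539). Between the DL1 groups the difference was 0.01, with a 95% interval of -0.31 to 0.32. Col9a1 and Col9a2, cartilage chains, stayed at background with means of 3.56 and 3.55 in OP9-DL1+CompoundE against 3.15 and 3.21 in OP9-DL1, and their calls of 0.42 and 0.33 rest on those levels.

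The chains not described so far gave no call. None of the 4 transmembrane chains, Col13a1, Col17a1, Col23a1 and Col25a1, and neither Col7a1, the anchoring fibril chain of skin, nor Col26a1 was called in any comparison. Among chains above background, Col5a3, Col11a2, Col9a3, Col20a1, Col22a1, Col25a1 and Col7a1 had means over the arrays of 3.64 to 4.62 and changes of -0.20 to 0.26. The 16 chains at background, including the 4 with a call given above, had array values of 2.34 to 3.98. They include Col8a2, which joins Col8a1 in the Descemet membrane, and Col10a1, the chain of growth plate cartilage.

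Neighbouring genes were compared through the RefSeq annotation of GRCm38.p6. Of 7 pairs of chains with no protein-coding gene between them, Col4a1 and Col4a2 on chromosome 8, Col3a1 and Col5a2 on chromosome 1, and Col6a1 and Col6a2 on chromosome 10 had both chains above background. Col18a1 lies near Col6a1 on chromosome 10 with 2 protein-coding genes between them, and their changes in OP9-DL1 against OP9-GFP were 2.83 and 0.01. The Col4a1 and Col4a2 starts lie close together on opposite strands.

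**Figure D3:**
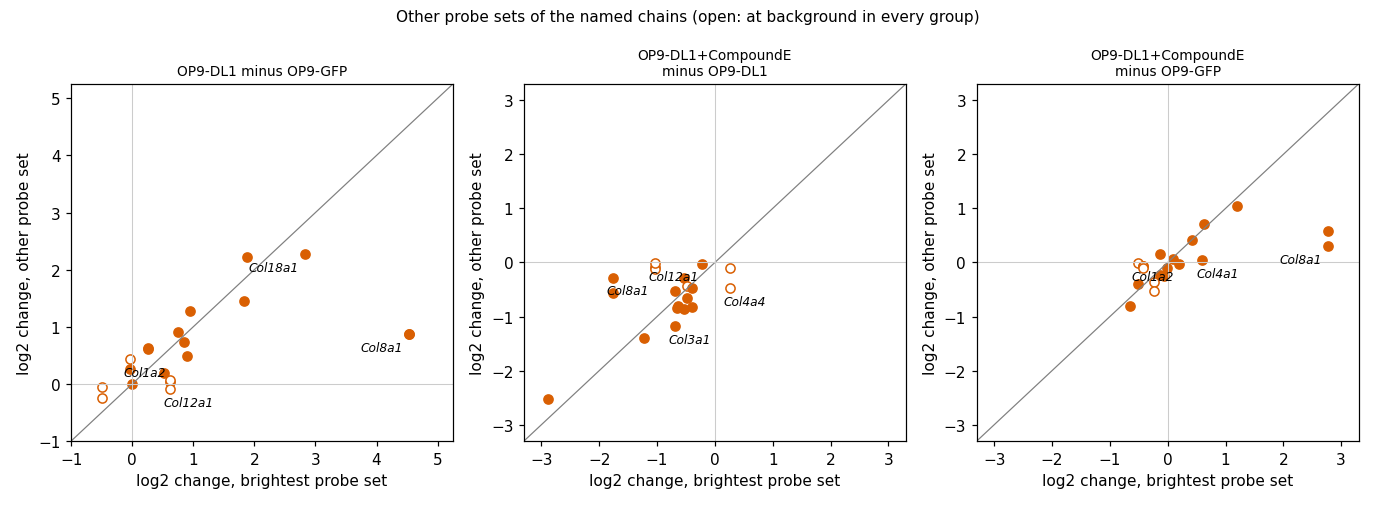
Log2 change of each other probe set (vertical axis) against that of the probe set used (horizontal axis) for the named chains, in the 3 comparisons. Open points are probe sets at background in every group and the line marks equal change. The other Col8a1 probe sets, at 0.86 and 0.87, lie far below the 4.53 of the one used in OP9-DL1 against OP9-GFP.

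Other probe sets of the called chains mostly had the same sign. In OP9-DL1 against OP9-GFP, 14 of 15 such probe sets had the sign of the one used and 9 were called the same way. In OP9-DL1+CompoundE against OP9-DL1 these counts were 17 and 13 of 17, and in OP9-DL1+CompoundE against OP9-GFP 12 and 5 of 12. Col5a2 gave 0.90, -0.84 and 0.06 by its other probe set in the 3 comparisons in this order, and Col11a1 1.27, -0.86 and 0.41, with the third uncalled in each. Col27a1 gave 0.74, -0.03 and 0.71, where the middle value was uncalled, and Col4a5 0.49, -0.52 and -0.04, where the last was. Col6a2 gave -0.81 in OP9-DL1+CompoundE against either other group, called in both. Probe sets of 1 gene share the same RNA and are not replicates.

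Genes that fold, modify and trim collagen did not move one way. Of 27 measured, 10 were higher and 6 lower in OP9-DL1 than in OP9-GFP (median 0.21), 6 higher and 12 lower in OP9-DL1+CompoundE than in OP9-DL1 (median -0.26), and 1 higher and 3 lower in OP9-DL1+CompoundE than in OP9-GFP (median 0.02). All genes had 15.9% called higher and 16.7% lower in the first of these comparisons, 25.1% and 21.6% in the second, and 12.1% and 10.6% in the third. Lysyl hydroxylase Plod1 had levels of 8.36 to 8.71 in OP9-DL1+CompoundE, 6.56 to 6.65 in OP9-DL1 and 8.23 to 8.48 in OP9-GFP, so it was low in OP9-DL1 alone (-1.76 against OP9-GFP, adjusted p = 4.72e-10 by limma). Plod3, of the same family, was also lower there (-0.96), and higher in OP9-DL1+CompoundE than in OP9-DL1 (1.62). Prolyl 3-hydroxylase P3h2 had the opposite order, with 5.08 to 5.20 in OP9-DL1+CompoundE, 7.48 to 7.68 in OP9-DL1 and 5.84 to 5.93 in OP9-GFP. Adamts3, a procollagen N-proteinase, changed by 1.96 in OP9-DL1 against OP9-GFP and by -2.62 in OP9-DL1+CompoundE against OP9-DL1, and the crosslinking enzyme Lox by 0.58 and -0.63.

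Of 11 collagen receptors, 7 were higher and 2 lower in OP9-DL1 than in OP9-GFP (median 0.50), 2 higher and 6 lower in OP9-DL1+CompoundE than in OP9-DL1 (median -0.47), and none higher and 1 lower in OP9-DL1+CompoundE than in OP9-GFP (median 0.08). Among all genes these shares were 15.9% and 16.7%, then 25.1% and 21.6%, then 12.1% and 10.6%. The receptor kinases Ddr1 and Ddr2 were higher in OP9-DL1 than in OP9-GFP by 1.10 and 0.96, and lower in OP9-DL1+CompoundE than in OP9-DL1 by log2 changes of -0.91 each. Gp6, the platelet collagen receptor, changed by 1.38 and -1.30 in the same comparisons, in which all 8 megakaryocyte markers were called higher and lower. Mrc1, the macrophage mannose receptor, which binds collagen fragments, had 8.34 to 8.59 in OP9-DL1+CompoundE, 6.01 to 6.17 in OP9-DL1 and 9.66 to 9.76 in OP9-GFP. Mrc1 is itself among the 7 macrophage markers, which were all lower in OP9-DL1 than in OP9-GFP and all higher in OP9-DL1+CompoundE than in OP9-DL1.

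Of 11 collagen-degrading proteases and their inhibitors, 7 were higher and 2 lower in OP9-DL1 than in OP9-GFP (median 0.56), 2 higher and 6 lower in OP9-DL1+CompoundE than in OP9-DL1 (median -0.29), and 5 higher and 2 lower in OP9-DL1+CompoundE than in OP9-GFP (median 0.22). Over all genes the higher and lower shares were 15.9% and 16.7%, 25.1% and 21.6%, and 12.1% and 10.6%. Mmp8, the neutrophil collagenase, had levels of 11.09 to 11.22 in OP9-DL1+CompoundE, 5.42 to 5.98 in OP9-DL1 and 10.28 to 10.33 in OP9-GFP, and its change of -4.52 between OP9-DL1 and OP9-GFP had an adjusted p of 3.9e-14 by limma. Mmp13, another collagenase, changed by 1.50 in OP9-DL1 against OP9-GFP and -2.08 in OP9-DL1+CompoundE against OP9-DL1, and Ctsk, the osteoclast protease cathepsin K, by -0.61 and 1.09. The inhibitor Timp3 changed by 1.19 and -1.94, Timp1 by 0.59 and -0.43, and Timp2 by 0.49 and -0.27, all called.

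Of 19 matrix partners of collagen, 9 were higher and 1 lower in OP9-DL1 than in OP9-GFP (median 0.10), 4 higher and 8 lower in OP9-DL1+CompoundE than in OP9-DL1 (median -0.24), and 4 higher and 1 lower in OP9-DL1+CompoundE than in OP9-GFP (median 0.12). The matching shares of all genes were 15.9% and 16.7%, 25.1% and 21.6%, and 12.1% and 10.6%. The nidogens Nid1 and Nid2, which link type IV collagen to laminin, were higher in OP9-DL1 than in OP9-GFP by 1.11 and 1.75. They changed by -1.01 and -0.97 in OP9-DL1+CompoundE against OP9-DL1. The collagen-binding protein Sparc, which is also among the feeder markers, changed by 0.61 and -0.52 in these comparisons, and the proteoglycan Bgn by 0.66 and -0.69. Lamc1, a laminin chain, moved the other way, by -0.69 and 1.17.

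**Figure D4:**
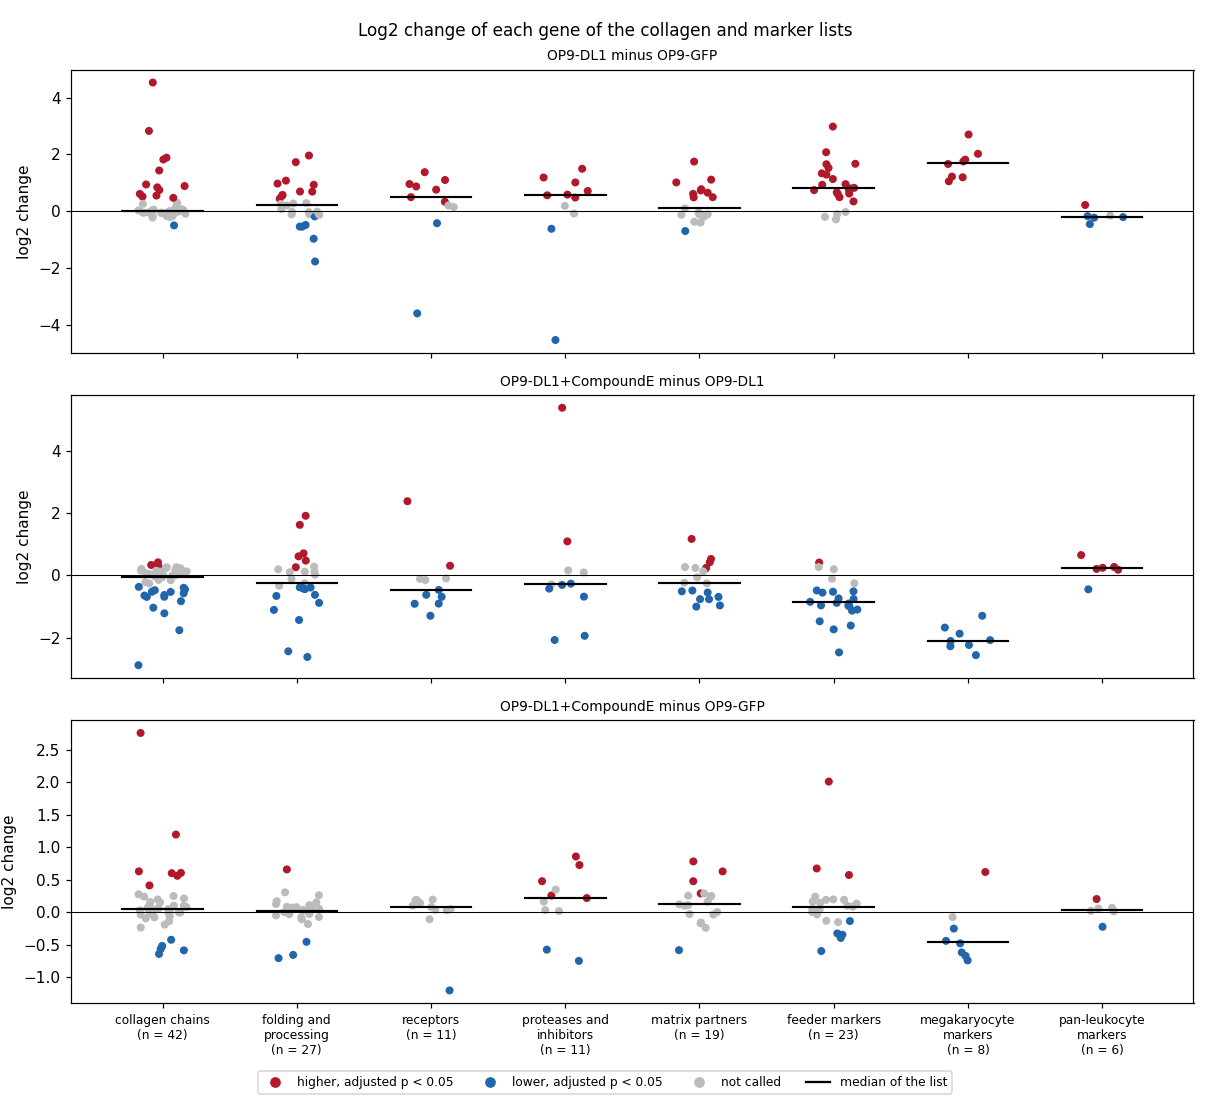
Log2 change of each gene in the collagen, collagen-related and marker lists, with 1 panel per comparison. Points are genes, coloured by call, and bars mark list medians. In OP9-DL1 against OP9-GFP the feeder markers have a median of 0.81 and the 42 collagen chains one of 0.02, with Col8a1 at 4.53. The 26 chains above background have a median of 0.28 there, and 4 of the 23 feeder markers were at background.

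Beside these lists, 19 of 23 feeder markers were called higher and none lower in OP9-DL1 than in OP9-GFP (median 0.81), 1 higher and 18 lower in OP9-DL1+CompoundE than in OP9-DL1 (median -0.85), and 3 higher and 5 lower in OP9-DL1+CompoundE than in OP9-GFP (median 0.08). Of 6 endothelial markers, 4 were higher in OP9-DL1 than in OP9-GFP (Pecam1, Kdr, Tek and Vwf). Cdh5 was lower there, and Emcn was at background and not called. Of 5 adipocyte markers, 4 were higher and 1 lower in the same comparison, and of 5 osteoblast and cartilage markers 2 were higher and none lower. In OP9-DL1+CompoundE against OP9-DL1, 3 endothelial and 4 adipocyte markers were lower and none higher, and 1 osteoblast and cartilage marker was higher and none lower. Of all genes, 15.9% were called higher and 16.7% lower in OP9-DL1 against OP9-GFP. These shares were 25.1% and 21.6% in OP9-DL1+CompoundE against OP9-DL1, and 12.1% and 10.6% against OP9-GFP. The 1 osteoblast and cartilage marker called higher, 20.0% of 5, was near the share of all genes. The pan-leukocyte markers had a median of -0.18 in OP9-DL1 against OP9-GFP and of 0.22 in OP9-DL1+CompoundE against OP9-DL1. The part of feeder cells, blood cells and any endothelial cells in each collagen level was not tested.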

How the data were processed

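The arrays measured 45101 probe sets in 9 samples, grouped by their titles. The authors deposited log2 values; the submitters' processing notes name MAS5 and GCRMA 2.4.1, without role or order, so the background correction and normalization behind these values are not known here. Per the labels, the RNA was amplified before labelling, which limits how far a fold change reflects the starting RNA, and the number of arrays limits the precision.

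Gene symbols came from the platform's annotation table (34945 probe sets had 1 symbol, 932 several and 9160 none, besides 64 controls), and 34741 symbols were updated by Entrez identifier through the RefSeq table of GRCm38.p6. The brightest probe set stood for each of 18193 genes. All genes and arrays were fitted together with limma 3.58.1 in R 4.3.3 (group means, empirical Bayes with an intensity trend), p-values were adjusted by Benjamini-Hochberg, and no replicate block was used. The code was tested on simulated data. Same-numbered arrays of different groups correlated by -0.11 to 0.12 in their deviations from the group means, so the numbers did not pair them.

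The chains and lists were chosen with earlier results of these data known. Named chains were those above background in at least 1 group mean and called in at least 1 comparison. Col2a1, the other uncalled chains above background and most chains at background were mentioned in addition. From each collagen-related list, the 4 genes with the smallest adjusted p in each of OP9-DL1 against OP9-GFP and OP9-DL1+CompoundE against OP9-DL1 were named. Alternatives were other normalizations, offsets, filters, probe set rules, models and leaving out each array. Promoters came from the RefSeq table of GRCm38.p6; motif positions count bases before the start.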

Additional observations from a re-analysis of the deposited data

How the results depend on the processing

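Over the other settings that refitted them, the 40 called differences of named chains kept their direction in all 748 refits. They kept their call in 725, and 34 of them were called in every refit. In many refits the estimate could not change, so a kept direction says nothing there. These were the gene filters, the fit with no intensity trend, the replicate block and the fit of only the 6 arrays compared. Leaving out an array of the group not compared belongs here too. The count called higher in OP9-DL1 against OP9-GFP, 13, was 5 at 2-fold or more and 27 of all 82 probe sets, and 12 to 14 when 1 array was left out. The count called lower there, 1, was 2 with centred arrays, 0 among genes above the median brightness, 0 at 2-fold, 2 with all probe sets, and 0 to 1 without 1 array. In OP9-DL1+CompoundE against OP9-DL1 the 3 called higher became 1 under quantile normalization, 10 with centred arrays, 0 above the median brightness, 0 above background, 0 at 2-fold, and 0 to 3 without 1 array (0 without OP9-DL1 replicate 2 and 1 without OP9-DL1+CompoundE replicate 2). The 16 called lower became 4 at 2-fold and 31 with all probe sets, and 15 to 17 without 1 array. In OP9-DL1+CompoundE against OP9-GFP the 7 higher became 2 at 2-fold and 5 to 8 without 1 array, and the 5 lower became 0 at 2-fold, 8 with all probe sets and 4 to 5 without 1 array. With the replicate number as a block these counts were 13, 1, 2, 16, 7 and 5. Without 1 array, 2486 to 3059 of all genes were called higher and 2571 to 3209 lower in OP9-DL1 against OP9-GFP. In OP9-DL1+CompoundE the counts were 3835 to 4636 and 3521 to 3937 against OP9-DL1, and 1614 to 2478 and 1445 to 1937 against OP9-GFP. With centred arrays 8040 of all genes were called higher in OP9-DL1+CompoundE against OP9-DL1, beside 4574 as deposited. Shares over all probe sets are not given here. Of the 14 uncalled differences, 6 refits gained a call with the sign kept. The sign turned in 17 refits, all of uncalled differences. In OP9-DL1 against OP9-GFP these were Col1a2 with averaged probe sets (0.22, then called at an adjusted p of 0.0240), Col6a1 with centred arrays (-0.030) and without 1 array (-0.021 to 0.069), and Col6a2 under quantile normalization (0.0062) and without 1 array (-0.10 to 0.082). In OP9-DL1+CompoundE against OP9-DL1 they were Col4a4 with averaged probe sets (-0.10) and Col16a1 without 1 array (-0.12 to 0.070). Against OP9-GFP they were Col1a1 with centred arrays (0.085) and without 1 array (-0.031 to 0.026), and Col18a1 with centred arrays (0.034) and without 1 array (-0.16 to 0.12). Averaging probe sets ended the Col12a1 calls in OP9-DL1 against OP9-GFP (0.15, adjusted p = 0.222) and in OP9-DL1+CompoundE against OP9-GFP (-0.16, adjusted p = 0.213). It made Col5a1 a call in OP9-DL1 against OP9-GFP (0.50, adjusted p = 0.000278). The cause of the changes between settings was not tested. A log2(value + 1) scale was not run. Chains near background, and small differences among 3 arrays a group, are the least certain.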
